A study of Oryza sativa Indica Group with 6 samples.

Results

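WRKY transcription factors were examined in seedlings of the rice semi-dwarf mutant *sd37* and of its wild type. Members were chosen by name: every gene whose symbol or synonym is WRKY followed by a number, with a leading Os ignored, and with a probe set that the platform's table assigns to that gene alone. This gave 6 genes, *OsWRKY71*, *OsWRKY51*, *OsWRKY24*, *OsWRKY76*, *OsWRKY62* and *WRKY9*, measured by 7 of the 57194 probe sets tested. *OsWRKY71* has 2 probe sets, and the one with the higher mean signal stands for the gene. The rice genome holds many more WRKY genes. *OsWRKY45*, *OsWRKY53*, *OsWRKY13*, *OsWRKY28* and other well-studied members carried no such name in the tables used here and were not analysed.

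The wild type was *Oryza sativa* ssp. *indica* cultivar 3037. The mutant *sd37* arose spontaneously in the same cultivar and carries a recessive point mutation in *CYP96B4*, a cytochrome P450 gene, which replaces a threonine with a lysine, so it is a single allele in a single background. Seedlings of both genotypes, 2 weeks old, were grown in a phytotron on MS pots with 16 h of light at 26°C and 8 h of darkness at 18°C, from seeds treated alike with bleach, and no treatment separates the groups. RNA of 3 biological replicates per genotype was measured on Affymetrix rice arrays, 1 array each, and no source states how many plants each array stands for. The study compared the genotypes to find genes whose expression differs in the mutant.

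WRKY proteins are plant transcription factors named after a conserved amino acid motif in their DNA-binding domain, which ends in a zinc finger. They bind the W box, a short promoter element found in many defence genes and in many WRKY genes themselves, so that family members regulate each other. Their transcripts are known to respond quickly to pathogens, wounding, cold and drought, and several act in hormone signalling of the germinating grain. *OsWRKY71*, *OsWRKY76* and *OsWRKY62* belong to one subgroup, IIa, with a leucine zipper ahead of the WRKY domain through which such proteins pair.

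The 6 arrays were not alike apart from genotype. The median signal was 51.1 and 56.3 in replicate 1 of the wild type and of *sd37*, and between 32.4 and 34.4 in the other 4 arrays. The hybridization spike-ins, labelled transcripts of bacterial and phage genes added to each array, had a mean signal of 5926 and 6869 in replicate 1 and of 3350 to 3639 in the others. Leaf genes were strong in every array: *CAB2R*, which encodes a chlorophyll-binding protein, lay between 11577 and 82318. All 3 leaf markers were highest in a replicate 1 array. *CAB2R* had 76051 and 82318 in replicate 1 against 11577 to 25811 in the others. *MADS14*, a gene of the floral transition, had signals of 74.7 and 90.9 in replicate 1 and of 4020 to 4620 in replicates 2 and 3. It was not alone among the inflorescence markers. *MADS15* had 25.4 and 7.8 in replicate 1 against 1172 to 3152.5 in the others, and *MADS1* had 24.4 and 85.6 against 596 to 893. *MADS2* (LOC4343851) had 1899 and 1227 against 10178 to 12102. Another *MADS2* (LOC4325001) had 147 and 194 against 347 to 601, and *MADS16* had 933 and 688 against 1547 to 1829. Of the 13 inflorescence markers, 6 were highest in a replicate 1 array, against 54.2% of all probe sets. The highest signals of these 6 were only 32.6 to 91.7, where the median of all values was 40.2. How the leaf and inflorescence signals bear on the label seedling was not tested. Genotype differences passed for none of 3 leaf, 7 root, 13 inflorescence and 4 grain markers in limma, and without the block none of them had p below 0.05 before adjustment together with a 1.5-fold change. With the block that rule called 1 leaf marker higher, *CAB2R* (log2 fold change 0.67), and 1 inflorescence marker lower, *MADS15* (-0.95), both without passing after adjustment. What part these differences between arrays play in the results was not tested. Both replicate 1 arrays thus stood apart in both genotypes, and each genotype difference is given over all arrays and within each replicate number.

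The 3 WRKY genes known as repressors of gibberellin signalling in the cereal aleurone, *OsWRKY71*, *OsWRKY51* and *OsWRKY24*, had lower signals in *sd37* than in the wild type. In each of the 3 genes, all 3 mutant arrays lay below all 3 wild-type arrays, as for 2.87% of all probe sets. The difference was therefore bound to be negative within every replicate number, as for 12.2%, and that sign adds no support of its own. None of the 3 passed in limma without the replicate number, and *OsWRKY71* passed with it as a block. The separation of *OsWRKY51* and *OsWRKY24* was lost when the arrays were scaled to a common median or spike-in signal. *WRKY9* lay slightly higher in *sd37*. *OsWRKY76* and *OsWRKY62*, repressors of the defence response, varied between single arrays by far more than between the genotypes. In bulk tissue, less RNA per cell and fewer cells that hold the RNA cannot be told apart.

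**Figure D1:**
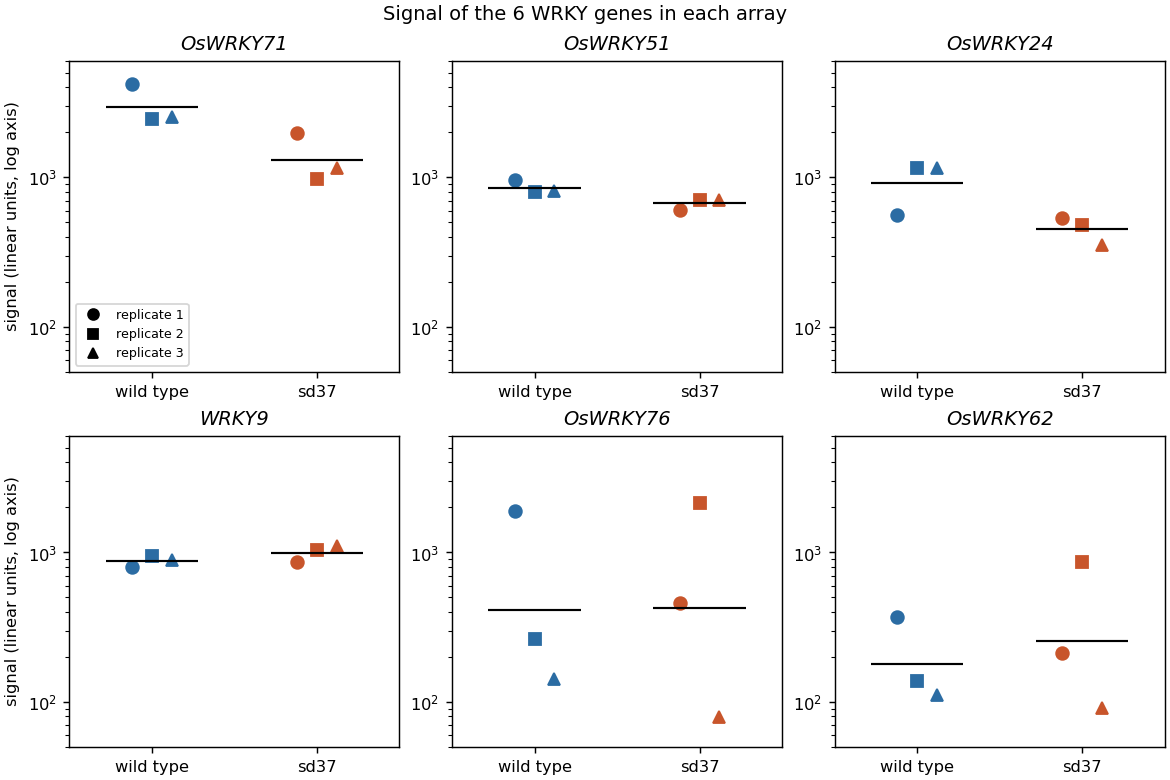
Signal of each WRKY gene (linear units on a log axis) in the 3 wild-type arrays (blue) and the 3 *sd37* arrays (orange), with the replicate number as the symbol and the mean of the log2 signals as a line. On these deposited signals the genotypes do not overlap for *OsWRKY71*, *OsWRKY51* and *OsWRKY24*, while *OsWRKY76* spans 79.4 to 2148 within *sd37* alone.

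*OsWRKY71* (LOC4328512) encodes a repressor of gibberellin-induced genes in aleurone cells, and rice that over-expresses it is known to resist bacterial blight better. Its signal was 4242, 2453 and 2518 in wild-type replicates 1, 2 and 3 and 1986, 981 and 1164 in *sd37* replicates 1, 2 and 3. The highest mutant array was replicate 1, and it still lay below the lowest wild-type array. The geometric mean of the signal, used for every mean of a gene here, was 2970 in the wild type and 1314 in *sd37*, with a standard deviation (SD) of 0.45 and 0.53 on the log2 scale (n = 3 arrays each). The log2 fold change of *sd37* over the wild type was -1.18 (standard error (SE) 0.34, 95% interval -1.96 to -0.39), or 2.26-fold lower.

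Within the replicate numbers the difference was nearly constant, with -1.09 in replicate 1, -1.32 in replicate 2 and -1.11 in replicate 3. The mutant array thus had 0.468, 0.4 and 0.462 of the signal of the wild-type array of the same number. In limma over all probe sets, without the replicate number in the fit, *OsWRKY71* did not pass (unadjusted p = 0.00858, adjusted p = 1). None of the 57194 probe sets passed there (0%) when a call required both an adjusted p below 0.05 and a 1.5-fold change, and 1248 did with p below 0.05 before adjustment. With the replicate number as a block the SE was 0.11 and *OsWRKY71* fell by 1.18 on the log2 scale at an adjusted p of 0.0468. It was 1 of the 6 probe sets that passed in that fit, 0.0105% of all, and 1 of 2 that were lower (0.0035%).

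That call lies close to the threshold and depends on the processing. With the block and quantile normalization the adjusted p from limma was 0.0561, and with the block and no intensity trend in the variance model it was 0.82. With the block and a floor of 16 it was 0.764, although every signal of this probe set was 981 or more. With the block it was 0.03 under median scaling and 0.0305 under spike-in scaling. The two-sided exact permutation test over the 6 arrays gave p = 0.1, the smallest that 3 arrays against 3 allow.

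The other probe set of *OsWRKY71* had signals of 668, 312 and 402 in the wild type and of 385, 125 and 103 in *sd37*. It was lower in the mutant within every replicate number, with log2 differences of -0.80, -1.32 and -1.96. Here *sd37* replicate 1 reached into the range of the wild type, so the genotypes overlapped. The log2 fold change was -1.36 (SE 0.55, 95% interval -2.62 to -0.10), with an adjusted p of 1 without the block and of 0.32 with it in limma. Both probe sets of the gene thus gave a difference of the same sign within each replicate number, and they share the same RNA.

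**Figure D2:**
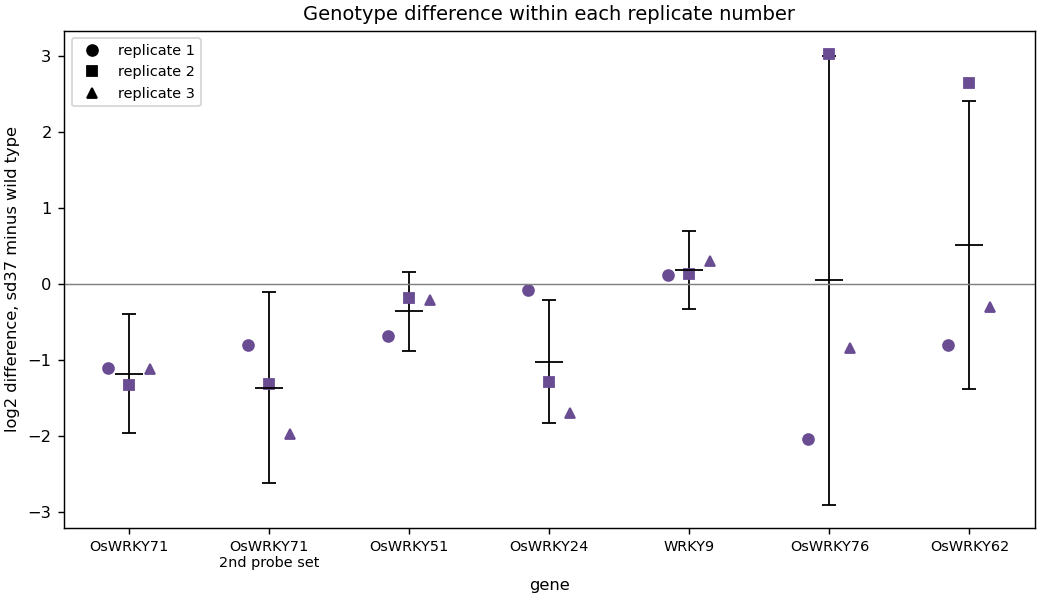
The log2 difference, *sd37* minus wild type, within replicate 1 (circle), 2 (square) and 3 (triangle), with the fitted log2 fold change and its 95% interval from limma without a block in black. The 3 values of *OsWRKY71* lie between -1.32 and -1.09, whereas those of *OsWRKY76* run from -2.04 to 3.03.

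The level of *OsWRKY71* also followed the replicate number. Replicate 1 exceeded the mean of replicates 2 and 3 by 1.71-fold in the wild type and by 1.86-fold in *sd37*, and *OsWRKY71* was the only member that passed the limma test of the replicate number with the genotype in the fit (adjusted p = 0.00473). Over all probe sets 15.2% passed that test. The hybridization spike-ins moved with it: relative to the mean of the 6 arrays they stood at 1.4 and 1.62 in replicate 1 and between 0.79 and 0.858 in the others.

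Divided by the spike-in signal of its own array, *OsWRKY71* was 0.716, 0.714 and 0.752 in the wild type and 0.289, 0.287 and 0.32 in *sd37*. On this scale the SD of the log2 values was 0.04 in the wild type and 0.09 in *sd37*, against 0.45 and 0.53 before. The log2 fold change was -1.28, and the adjusted p from limma was 1 without the block and 0.0305 with it. This scale was chosen after the values were seen. It did not tighten the others alike: the SD of *WRKY9* went from 0.13 to 0.58 in the wild type and from 0.18 to 0.73 in *sd37*. What part the array scale plays in the replicate pattern was not tested.

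**Figure D3:**
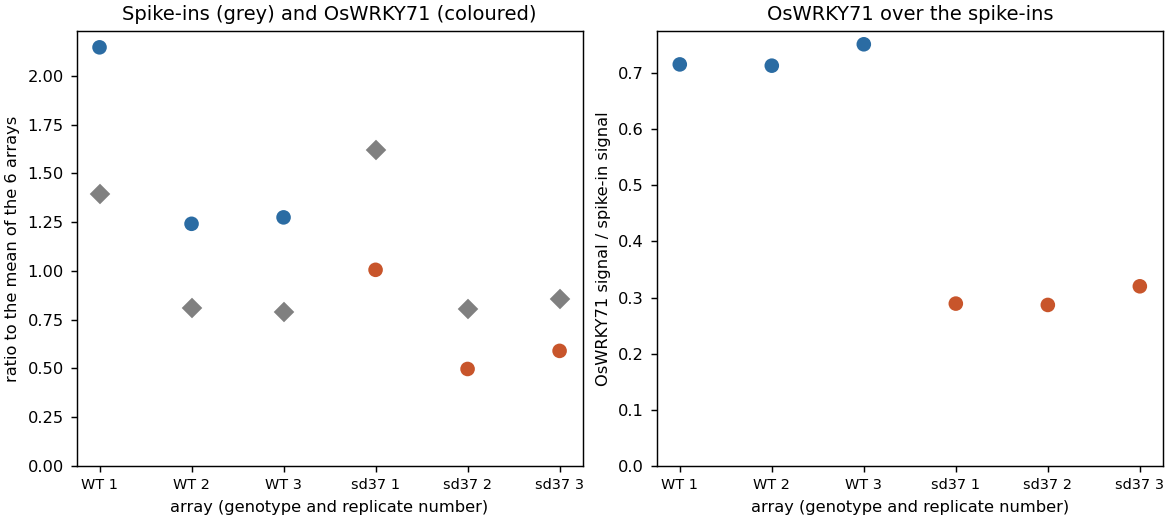
Left, the signal of *OsWRKY71* (blue, wild type; orange, *sd37*) and of the hybridization spike-ins (grey diamonds) in each array, as a ratio to the mean of the 6 arrays. Right, *OsWRKY71* over the spike-in signal of the same array: the wild-type arrays lie between 0.714 and 0.752 and the *sd37* arrays between 0.287 and 0.32.

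*OsWRKY51* (gene ID 4335388) encodes a partner of *OsWRKY71* that acts with it on the gibberellin-responsive promoter of an amylase gene. Its signal was 968, 795 and 813 in the wild type and 603, 702 and 708 in *sd37*. The genotypes did not overlap, but the gap between 795 and 708 was small. The mean was 855 against 669, a log2 fold change of -0.35 (SE 0.23, 95% interval -0.87 to 0.17, n = 3 arrays each), under the 1.5-fold threshold. Replicate 1 held most of the difference, with -0.68, and replicates 2 and 3 had -0.18 and -0.20. The gene did not pass in limma (adjusted p = 1 without the block and 0.82 with it).

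*OsWRKY24* (LOC4327518), also listed as *WRKY8*, encodes a repressor of both gibberellin and abscisic acid signalling in aleurone cells. Its signal was 564, 1164 and 1148 in the wild type and 536, 478 and 354 in *sd37*. The wild-type array of replicate 1 was the low one of its group and stood just above the highest mutant array. The mean was 910 against 449, a log2 fold change of -1.02 (SE 0.35, 95% interval -1.83 to -0.21, n = 3 arrays each), or 2.03-fold lower. Replicate 1 had a difference of -0.07, against -1.28 and -1.70 for replicates 2 and 3, so replicate 1 showed almost none of it. Its unadjusted p in limma was 0.0197, and the adjusted p was 1 without the block and 0.609 with it. Without replicate 1 of either genotype the log2 fold change was -1.49.

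For *OsWRKY51* and *OsWRKY24* the separation of the genotypes depended on the scale of the arrays. After each array was brought to the same median signal, or to the same spike-in signal, only *OsWRKY71* kept its genotypes apart among the 6 genes. Its log2 fold change was then -1.26 and -1.28, that of *OsWRKY24* was -1.10 and -1.13, and that of *OsWRKY51* was -0.43 and -0.46.

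*WRKY9* (LOC4343736) was the steadiest member. Its signal was 795, 944 and 888 in the wild type and 866, 1036 and 1102 in *sd37*, and the highest array was 1.39 times the lowest. The genotypes overlapped, although the mutant was higher within each replicate number, by 0.12, 0.13 and 0.31 on the log2 scale. The log2 fold change was 0.19 (SE 0.22, 95% interval -0.32 to 0.70, adjusted p = 1 from limma).

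*OsWRKY76* and *OsWRKY62* lie next to each other in the rice genome, with 0 annotated genes between them. Both encode repressors of defence: *OsWRKY62*, also known as XB10, binds the immune receptor XA21 and lowers resistance to bacterial blight, and *OsWRKY76* lowers resistance to blast and raises tolerance of cold. Neither passed between the genotypes in limma, and both varied widely between arrays of the same genotype.

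*OsWRKY76* (LOC4347069) had a signal of 1883, 262 and 142 in the wild type and of 459, 2148 and 79.4 in *sd37*. The high arrays were wild-type replicate 1 and *sd37* replicate 2, one of each genotype and of different replicate numbers. The highest array was 27-fold above the lowest, and that pair was *sd37* replicate 2 and *sd37* replicate 3. The means, 413 for wild-type and 428 for mutant arrays, gave a log2 fold change of 0.05 with a wide interval (SE 1.28, 95% interval -2.90 to 3.01). With so wide an interval these arrays do not show that the genotypes are alike.

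*OsWRKY62* (LOC4347070) had a signal of 373, 138 and 112 in the wild type and of 214, 865 and 91.4 in *sd37*. It was high in the same 2 arrays, and the order of all 6 arrays was the same for both genes, from *sd37* replicate 2 through wild-type replicate 1, *sd37* replicate 1, wild-type replicate 2 and wild-type replicate 3 to *sd37* replicate 3. The log2 fold change was 0.52 (SE 0.82, 95% interval -1.38 to 2.41). Within the replicate numbers it was -0.80, 2.64 and -0.29, and for *OsWRKY76* it was -2.04, 3.03 and -0.84. Without *sd37* replicate 2 the log2 fold change turned to -0.36 for *OsWRKY62* and to -1.11 for *OsWRKY76*.

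**Figure D4:**
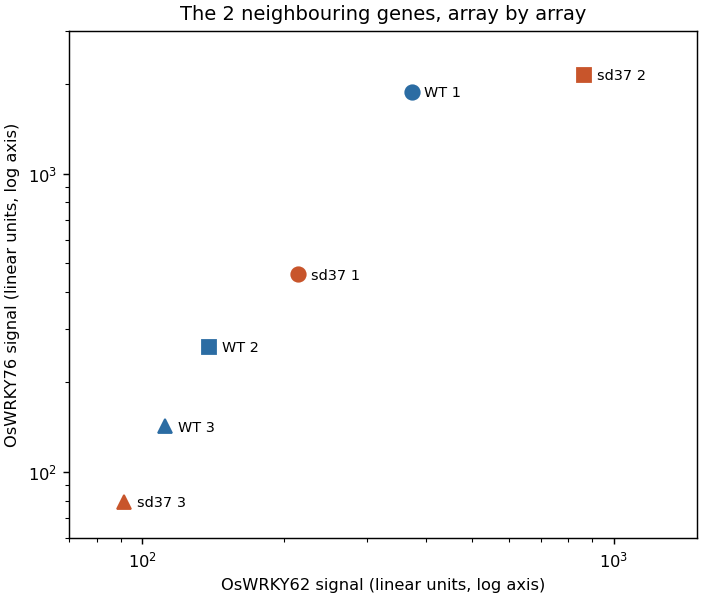
Signal of *OsWRKY76* against that of *OsWRKY62* (linear units, both axes logarithmic) in the 6 arrays, blue for the wild type (WT) and orange for *sd37*, with the replicate number beside each point. Both genes rank the arrays in the same order, from *sd37* replicate 3 (91.4 and 79.4) to *sd37* replicate 2 (865 and 2148).

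*OsWRKY71*, of the same subgroup, did not share this order: *sd37* replicate 2, the highest array for its relatives, was its lowest. Among all probe sets, 11.4% had their highest signal in *sd37* replicate 2. Signs of RNA quality for that array were read from control genes. The ratio of the 3′ to the 5′ probe set of the GAPDH control was 4.98 there and between 4.74 and 6.70 in the other 5 arrays, and that of the actin control was 8.16 there and between 6.16 and 13.0 in the others. Every array thus had far more 3′ than 5′ signal. Both ratios were lowest in replicate 1, with 4.74 and 4.80 for GAPDH and 6.16 and 7.04 for actin in wild type and *sd37*. What part RNA quality plays in the replicate pattern or in the high signals of *sd37* replicate 2 was not tested.

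Of the 6 genes, 3 had a lower and 3 a higher fitted value in *sd37*, where 47.4% of all probe sets were lower. The median of their log2 fold changes was -0.15, against 0.00 over the 17905 genes named by a single-gene probe set. Over replicates 2 and 3 alone the median was 0.02. Within single replicate numbers it was -0.74 in replicate 1, -0.02 in replicate 2 and -0.57 in replicate 3. With p below 0.05 before adjustment and a 1.5-fold change, limma without the block called 2 members, *OsWRKY71* and *OsWRKY24*, both lower in *sd37*. By that rule 2.18% of all probe sets were called, 0.981% lower and 1.2% higher. With the block it called the same 2 genes, against 4.27% of all probe sets, 1.99% lower and 2.28% higher. The genotypes did not overlap for 3 members, all lower in *sd37*, against 6.07% of all probe sets, 2.87% lower and 3.2% higher. The difference had the same sign in all 3 replicate numbers for 4 members, 3 lower and 1 higher, against 12.2% and 14.1% of all probe sets. The 3 lower ones are the members without overlap, for which this sign was fixed by the separation. The members were named with earlier results of these arrays in view, so these counts describe the 6 genes and do not test the family.

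**Figure D5:**
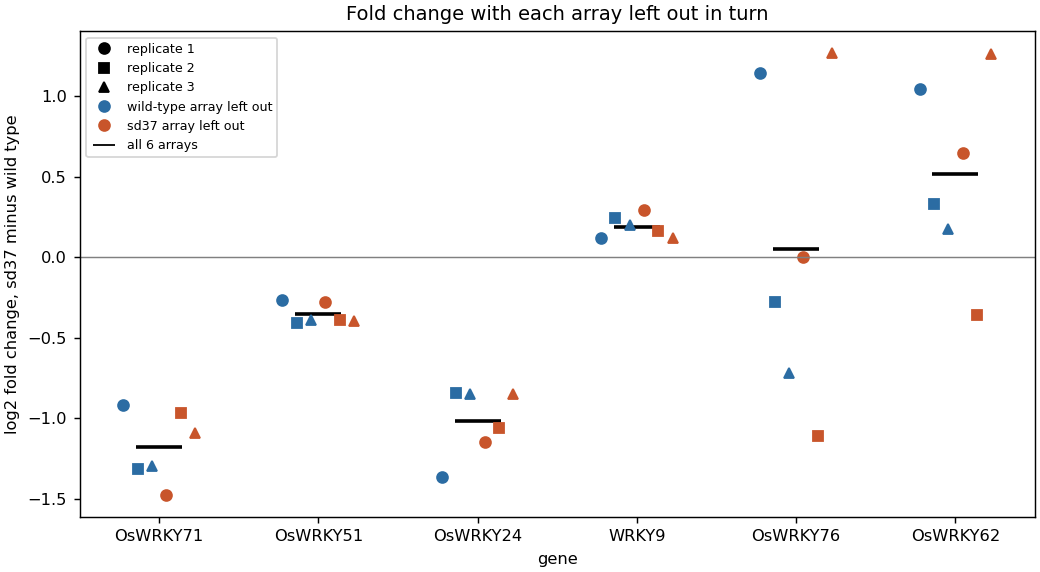
The log2 fold change, *sd37* over the wild type, with each array left out in turn (blue, a wild-type array left out; orange, an *sd37* array left out; the symbol gives its replicate number) and with all 6 arrays (black line). *OsWRKY71* stays between -1.47 and -0.92 and *OsWRKY24* between -1.36 and -0.84, while *OsWRKY76* runs from -1.11 to 1.27.

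Genes around these factors were taken from lists formed by name. Of 13 measured genes of the MAP kinase cascades and chitin receptors, which activate WRKY factors after pathogen contact, 4 were lower and 9 higher by their fitted values, and the median was 0.09 on the log2 scale. The one with the smallest p was *MPK3* (LOC4332475, also *MPK5*), a stress-activated MAP kinase. Its signal was 735, 815 and 649 in the wild type and 495, 499 and 340 in *sd37*, so the genotypes did not overlap. Its log2 fold change was -0.74 (SE 0.27), with an adjusted p of 1 without the block and of 0.425 with it in limma. *LYP4*, a receptor of chitin and peptidoglycan, had 99.3, 9.5 and 24.5 against 107, 57.3 and 66.3, and the genotypes overlapped.

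The salicylic acid branch was represented by 3 genes of the *NPR1* family, co-activators of defence genes, with a median of 0.13. *NPR1* (LOC4327315, also *NH1*) had 1041, 1007 and 971 in the wild type and 906, 1531 and 914 in *sd37*. Its highest array was *sd37* replicate 2, and the other 5 arrays lay close together. A second gene listed as *NPR1* (LOC4325503, also *NH2*) had 9227, 6662 and 7084 against 9231, 8074 and 7643. Of all 33 genes in these lists, 4 were highest in *sd37* replicate 2, a share close to the 11.4% of all probe sets, and 19 were highest in a replicate 1 array, against 54.2% of all probe sets.

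Of 5 defence protein genes, 1 had a lower and 4 a higher fitted value, with a median of 0.32. *PBZ1*, a pathogenesis-related protein of the PR10 family, had 26233, 6160 and 3703 in the wild type and 44038, 10763 and 11065 in *sd37*. It was higher in the mutant within each replicate number, by 0.75, 0.81 and 1.58 on the log2 scale, and both replicate 1 arrays were far above the rest (log2 fold change 1.04, SE 0.79, adjusted p = 1 without the block and 0.185 with it in limma). *CHT1* (LOC4342115), a chitinase, had 332, 1180 and 534 against 687, 1295 and 699.

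Among 12 gibberellin and abscisic acid genes that act with the aleurone WRKY factors, 5 had a lower and 7 a higher fitted value, with a median of 0.03. *AMY3E*, an alpha-amylase, had 1.4, 5.7 and 1 in the wild type and 50.4, 13.8 and 22 in *sd37*, and *LEA3*, a late embryogenesis protein induced by abscisic acid, had 23.4, 20 and 22.1 against 8.7, 1.5 and 2.4. Most of these signals lie below the median of all values, 40.2, where the error is large, and neither gene passed (adjusted p = 1 for each from limma). *GAMYB*, the activator of gibberellin response that *OsWRKY71* opposes, averaged 667 over the wild-type arrays and 718 over those of *sd37*, and *SLR1*, the DELLA repressor of gibberellin signalling, averaged 1044 and 1087. *GAMYB* and *SLR1* were picked with their values known. Over the 33 genes of the lists, 0 passed in either fit of limma, and 2 were lower and 1 higher with p below 0.05 before adjustment and a 1.5-fold change, without the block. With the block these counts were 3 and 2. Over all probe sets that rule called 0.981% lower and 1.2% higher without the block, and 1.99% and 2.28% with it. The list of VQ proteins, which bind WRKY factors, had 0 measured members.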

How the data were processed

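The deposited table holds 1 signal intensity per probe set and array on a linear scale, made by the authors' array service. Its algorithm and normalization are not given in the sources used here, and the methods name guanidinium and phenol extraction and the labels a column kit. Control probe sets were left out (123 Affymetrix and 64 reporter), so 57194 were tested. Values under 1 (1.76%) were set to 1 before log2. Genotypes were compared with limma 3.58.1 in R 4.3.3 (lmFit and eBayes with an intensity trend, Benjamini-Hochberg adjustment), and a call needed an adjusted p under 0.05 and a 1.5-fold change. Exact permutation tests were two-sided. The code was tested on simulated data. The labels call the samples biological replicates without naming separate cultures, so p-values measure the spread between these samples, and precision is limited by having 3 arrays a group.

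Arrays of the same replicate number deviated together from their group means (correlations 0.394, 0.134 and 0.16, all over 0.1). The numbers were taken as pairs, and the fit with them as a block is given where it changes a call. Wild-type replicate 2 and *sd37* replicate 3 had 0.163, and wild-type replicate 3 and *sd37* replicate 2 had 0.13. These values therefore do not tell whether replicates 2 and 3 are paired by number. Replicate 1 was set apart, with correlations of -0.262 to -0.214 with the replicate 2 and 3 arrays of the other genotype. In limma with replicate 1 as a batch, which does not pair replicates 2 and 3, *OsWRKY71* had an adjusted p of 0.038.

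All members were named. Of each pathway list (MAP kinases and chitin receptors, salicylic acid branch, defence proteins, gibberellin and abscisic acid genes, VQ proteins) the genes with the smallest p were named, up to 2. Members and lists were chosen with earlier results of these data known. An actin and a growth-regulating factor were left out of the lists because they matched a name only through a synonym. Gene names come from the platform's annotation and from RefSeq, assembly ASM3414082v1, used only for names and neighbouring genes. Alternatives were another scaling, floor, filter, variance model, test, replicate block and array set.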

Additional observations from a re-analysis of the deposited data

How the results depend on the processing

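The count of members that passed was 0 and became 1, *OsWRKY71*, with the replicate block, with replicate 1 as a batch, and with the block under median or spike-in scaling. It was 0 with the block under quantile normalization, a floor of 16, a filter on low signals or no intensity trend. The adjusted p of *OsWRKY71* from limma was 0.0468 with the replicate block, 0.038 with replicate 1 as a batch, 0.03 with the block and median scaling, 0.0305 with the block and spike-in scaling, 0.0561 with the block and quantile normalization, 0.0955 with the block and the filter, 0.764 with the block and the floor, 0.82 with the block and no trend, and 0.0892 over replicates 2 and 3 alone. Spike-in scaling and the block combined with other choices were chosen after seeing the data. Spike-in scaling moved the median over all probe sets by -0.11.

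Members lower with p below 0.05 before adjustment and a 1.5-fold change numbered 2, and 1 under median scaling, spike-in scaling, no trend and the plain analysis of variance, and 1 to 2 with single arrays left out. Members without overlap numbered 3, 1 under median or spike-in scaling, 4 under quantile normalization, without *sd37* replicate 1 and over replicates 2 and 3 only. Members that followed the replicate number numbered 1, and 0 with the floor, no trend, the analysis of variance and replicates 2 and 3 only, 2 over every probe set, 3 with spike-in scaling, and 1 to 3 with single arrays left out. The median log2 fold change, -0.15, ranged from -0.677 to -0.0712 with single arrays left out, -0.677 being without *sd37* replicate 2 and -0.554 without wild-type replicate 3, and it turned to 0.0167 over replicates 2 and 3 only.

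*OsWRKY76* turned to -0.0281 under median scaling and to -0.0568 under spike-in scaling, with or without the block, and to -0.275, -0.717 and -1.11 with single arrays left out, over a range of -1.11 to 1.27. *OsWRKY62* turned to -0.36 without *sd37* replicate 2, and otherwise reached 1.26. The causes were not tested. Same-sign counts have no value with 1 array left out, since its partner is then unpaired.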
